A study of Homo sapiens with 26 samples.

Results

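Transcripts engaged by ribosomes at the outer mitochondrial membrane (OMM) were compared between cells in which translation continued and cells in which it had been arrested with cycloheximide (CHX), which bears on whether translation at this membrane is seen only after the drug. The measure was the change in log2 enrichment, the log2 ratio of a gene's reads, scaled by the library total (CPM), in the streptavidin pulldown to those in the total input of the same lysate, without CHX (1 lysate) minus the mean of the lysates with CHX (2 lysates). Of 60663 genes in the tables, 13016 had at least 64 reads in each of the 3 total inputs and were kept, 11627 of them protein-coding. With 1 lysate without CHX, the change has no replicate check and no p-value, and the only replicate error is the difference between the lysates with CHX.

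The libraries were made from HEK293T, an established line of human embryonic kidney origin, with an Avi tag on the endogenous ribosomal protein RPL29, on which BirA places biotin. LOV-BirA, a form of this ligase switched on by blue light, was held at the OMM by the transmembrane segment of OMP25 and was expressed from an EF1α promoter after lentiviral delivery in a sorted polyclonal population. The lysates with CHX came from wild-type cells carrying a negative control gRNA, and received 100 μg/mL CHX for 2 min and then 50 μM biotin with 10 min of blue light. Cells without CHX, whose label names no gRNA, received biotin and light for 1 min, so the drug and the labelling time cannot be told apart. Whether both came from the same clone is not given in the sources used here, so a difference of line cannot be told apart from the drug either. The lysis buffer held CHX in both cases. These are 6 of the 26 libraries of the series.

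CHX stops elongating ribosomes on the mRNA, so nascent chains stop growing while they stay attached. Most mitochondrial proteins are encoded in the nucleus and carry signals that direct them to import receptors of the OMM, some while they are still being made. A long protein leaves more time between the synthesis of such an N-terminal signal and the end of translation than a short one.

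Read totals were 92886870 in the total input without CHX and 63646523 in its pulldown, and 38347615 to 55605306 in the libraries with CHX. No gene took more than 0.939% of a library. The 13 protein-coding genes of the mitochondrial genome were listed at 0 in all 6 libraries and have no value. Of 6 kidney progenitor markers, 5 reached 64 reads in every total input, and 0 of 8 markers of blood, liver, muscle, endothelium, basal epithelium and glia did.

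Enrichment without CHX followed that with CHX across protein-coding genes with a Pearson r of 0.79 for replicate 1 and 0.77 for replicate 2, against 0.97 between the lysates with CHX. These correlations run across genes of the same libraries, which are not independent replicates, and are descriptions. The median change was 0.16 over all genes and its SD 0.49, against an SD of 0.20 for the difference between replicates. Enrichment was higher by more than 1 on the log2 scale, a 2-fold difference, for 696 genes (5.35%) and lower by more than 1 for 121 (0.93%). Among protein-coding genes the counts were 504 (4.33%) and 89 (0.765%). Because library totals set the scale, TMM scaling lowered the median of all genes by 0.14 and DESeq2 size factors by 0.19, and the split moved from 85.2% higher among genes past 2-fold to 72.1% and 67.4%, respectively. A median change between 0 and 0.14 given below thus turns negative under both scalings, and one up to 0.19 under the second. The value without CHX lay above both values with CHX for 60.4% of protein-coding genes and below both for 27.2%.

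**Figure D1:**
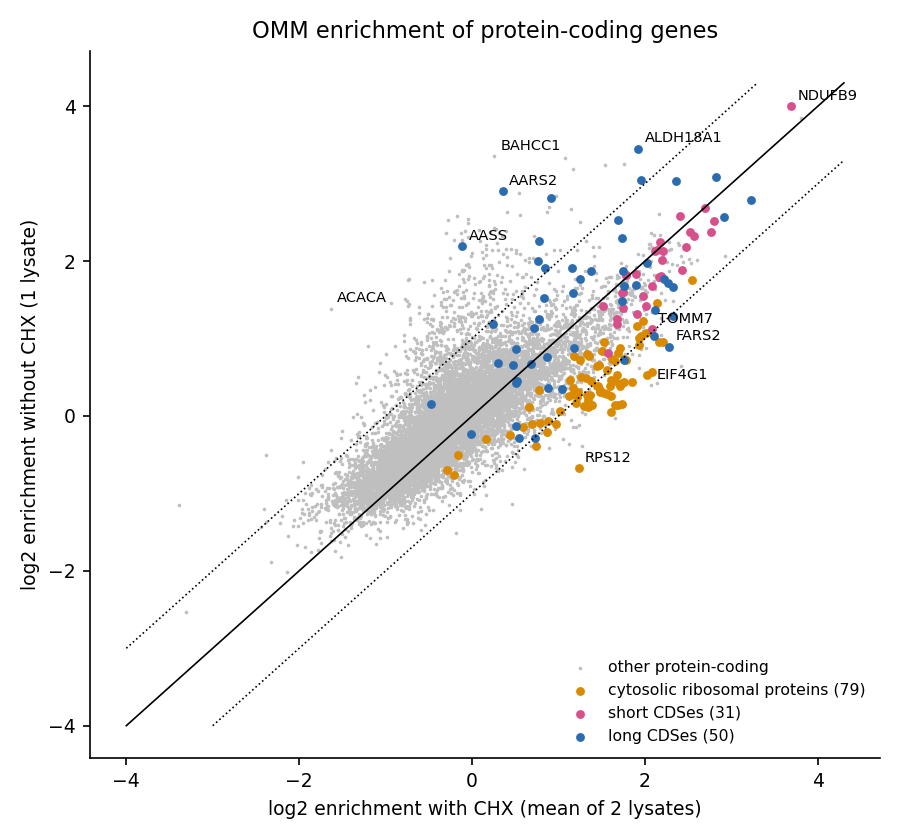
Log2 OMM enrichment without CHX (y axis, 1 lysate) against the mean of the lysates with CHX (x axis, 2 lysates) for 11627 protein-coding genes, with the line of equal values and dotted lines at a difference of 1. The 31 short CDSes lie along or just under the line, the 50 long CDSes scatter to both sides of it, and the 79 cytosolic ribosomal protein genes lie below it.

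Mitochondrial genes translated at the OMM were taken from ribosome profiling of other libraries, made with CHX, as genes for nuclear-encoded mitochondrial proteins whose footprints had a log2 enrichment above 1.5 in replicate 1. They fall into short CDSes, under 200 aa, and long CDSes, over 400 aa, with 31 and 50 genes measured here. Since footprints made with CHX chose them, their values with CHX are not independent of the choice. Without CHX the 31 short CDSes had a median log2 enrichment of 1.82, against 2.04 and 2.19 with CHX, and the 50 long CDSes 1.56 against 0.98 and 1.31. The other 921 nuclear-encoded mitochondrial genes had 0.39 against 0.32 and 0.42, and all genes −0.13 against −0.29 and −0.33. Both classes therefore stayed above all genes in each of the 3 lysates. The median change was −0.24 for short CDSes and 0.057 for long ones, and the latter turned negative under TMM (−0.083), DESeq2 size factors (−0.13), without CHX replicate 1 (−0.10), with footprint replicate 2 choosing the class (−0.017) or with a footprint threshold of 1 (−0.11). It was 0.23 without CHX replicate 2.

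Of the 31 short CDSes, 19 encode subunits of the respiratory chain or ATP synthase and 4 mitochondrial ribosomal proteins. Log2 enrichment without CHX was above 1 for 30 of 31 genes, against 31 and 31 with CHX, and above 1.5 for 23, against 31 and 30. No short CDS differed by over 2-fold in either direction, beside 5.35% and 0.93% of all genes. The value without CHX lay below both replicates for 23 genes and above both for 4, beside 26.9% and 60.5% of all genes. Among all protein-coding genes it lay below both for 197 of 234 under 100 aa and 831 of 1188 of 100 to under 200 aa. Within the class, enrichment without CHX had an r of 0.89 and 0.91 with the replicates.

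NDUFB9, a complex I subunit of 179 aa, was the most enriched gene of the class in all 3 lysates, at 4.0 without CHX and at 3.64 and 3.75 with it. It also had the highest log2 enrichment of all protein-coding genes without CHX. MGST3, a membrane glutathione transferase, reached 2.57 against 2.28 and 2.53, and NDUFA6 of complex I reached 2.25 against 2.11 and 2.24. DBI, an acyl-CoA binding protein, had 1.82 against 1.74 and 1.81, and CHCHD10 had 1.82 against 1.66 and 1.90. Of these 5 changes, the highest of the class, only that of NDUFB9, 0.31, was larger than the gap between replicates.

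TOMM7, a small subunit of the TOM import complex, had the lowest change of the class, −0.97, with 2.04 and 2.13 with CHX and 1.12 without. In CPM TOMM7 had 115 in the total input and 249 in the pulldown without CHX, and 108 and 443 in replicate 1 with CHX, so the difference lay in the pulldown. GPX4, which reduces lipid peroxides, had 1.52 and 1.63 with CHX and 0.82 without (−0.76). The ATP synthase subunit ATP5MJ had a change of −0.60, and the complex IV subunits COX7C and NDUFA4 had −0.59 and −0.53. COX5B of complex IV lay between the replicates, at 2.68 without CHX against 2.64 and 2.76. COX6A1, another complex IV subunit, which has no footprint value and so belongs to neither class, had 3.84 against 3.80 and 3.80.

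In long CDSes the change went with protein length. Across the 50 genes the change had a Pearson r of 0.76 with protein length (Spearman rho 0.74), and enrichment without CHX had an r of only 0.53 and 0.54 with the replicates, against 0.99 between these. Among the 19 genes of over 400 to 600 aa the median was 1.49 without CHX against 1.94 and 2.21 with CHX, and 14 of the 19 lay below both replicates. In the 21 genes of over 600 to 800 aa it was 1.25 against 0.76 and 0.98, with 13 above both replicates. The 10 genes over 800 aa had 1.79 against 0.47 and 0.76, with 9 above both. All 8 genes higher by over 2-fold (16% of the class) were over 600 aa and all 5 lower by over 2-fold (10%) at most 600 aa. Of all genes, 5.35% were higher and 0.93% lower by that much. Over 600 aa, 8 of 31 long CDSes (25.8%) were higher, beside 17 of 109 mitochondrial genes outside the OMM classes (15.6%). At over 400 to 600 aa, 5 of 19 long CDSes (26.3%) were lower, beside 4 of 192 (2.08%). The median GC content of the transcripts, 51.1%, 44.9% and 50.5% in the 3 length groups, had no order with length. The median change in the total input was 0.36, 0.50 and −0.16, and that in the pulldown −0.19, 0.95 and 1.25. In the group of at most 600 aa the total input thus moved more than the pulldown.

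AARS2, the mitochondrial alanyl-tRNA synthetase (985 aa; chromosome 6, 44298731 to 44313347 on GRCh38), had the highest change of the class, from 0.27 and 0.44 with CHX to 2.90 without (2.54). Its CPM in the pulldown were 183 without CHX and 43.4 and 53.4 with it, while those of AARS2 in the total input were 24.6 against 36 and 39.4. AASS, the first enzyme of mitochondrial lysine breakdown (926 aa; chromosome 7, 122064583 to 122144308), was not enriched with CHX, at −0.36 and 0.12, and reached 2.19 without. In the total input AASS had 39.2 CPM without CHX and 40.0 and 36 with it, so the difference lay in the pulldown.

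POLRMT, the RNA polymerase of mitochondrial DNA (1230 aa), went from 0.84 and 0.98 to 2.82, with a total input lower by 0.91. ALDH18A1, a proline synthesis enzyme of 795 aa, went from 1.85 and 2.00 to 3.45 while its total input was also higher, by 0.96. SELENOO, a mitochondrial selenoprotein of 669 aa, went from 0.79 and 0.75 to 2.25. Also higher by over 2-fold were the isoleucyl-tRNA synthetase IARS2 (1.09), the chaperone TRAP1 (1.07) and NLRX1 (1.24), the last named after its value was seen.

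At the other end stood enzymes of 432 to 539 aa. FARS2, the mitochondrial phenylalanyl-tRNA synthetase (451 aa), went from 2.06 and 2.50 to 0.90, the lowest change of the class at −1.38. SUCLG2, a subunit of succinyl-CoA ligase in the TCA cycle, went from 1.95 and 2.26 to 1.04, and ALDH1B1, an aldehyde dehydrogenase, from 1.63 and 1.88 to 0.72. PCCB, a subunit of propionyl-CoA carboxylase, went from 2.23 and 2.41 to 1.28, with a pulldown change of only 0.03 and a total input higher by 1.07. PDK1, the kinase that inhibits pyruvate dehydrogenase, went from 0.66 and 0.79 to −0.29. The aminoacyl-tRNA synthetases FARS2 and AARS2 thus lay at opposite ends, at 451 aa and 985 aa.

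**Figure D2:**
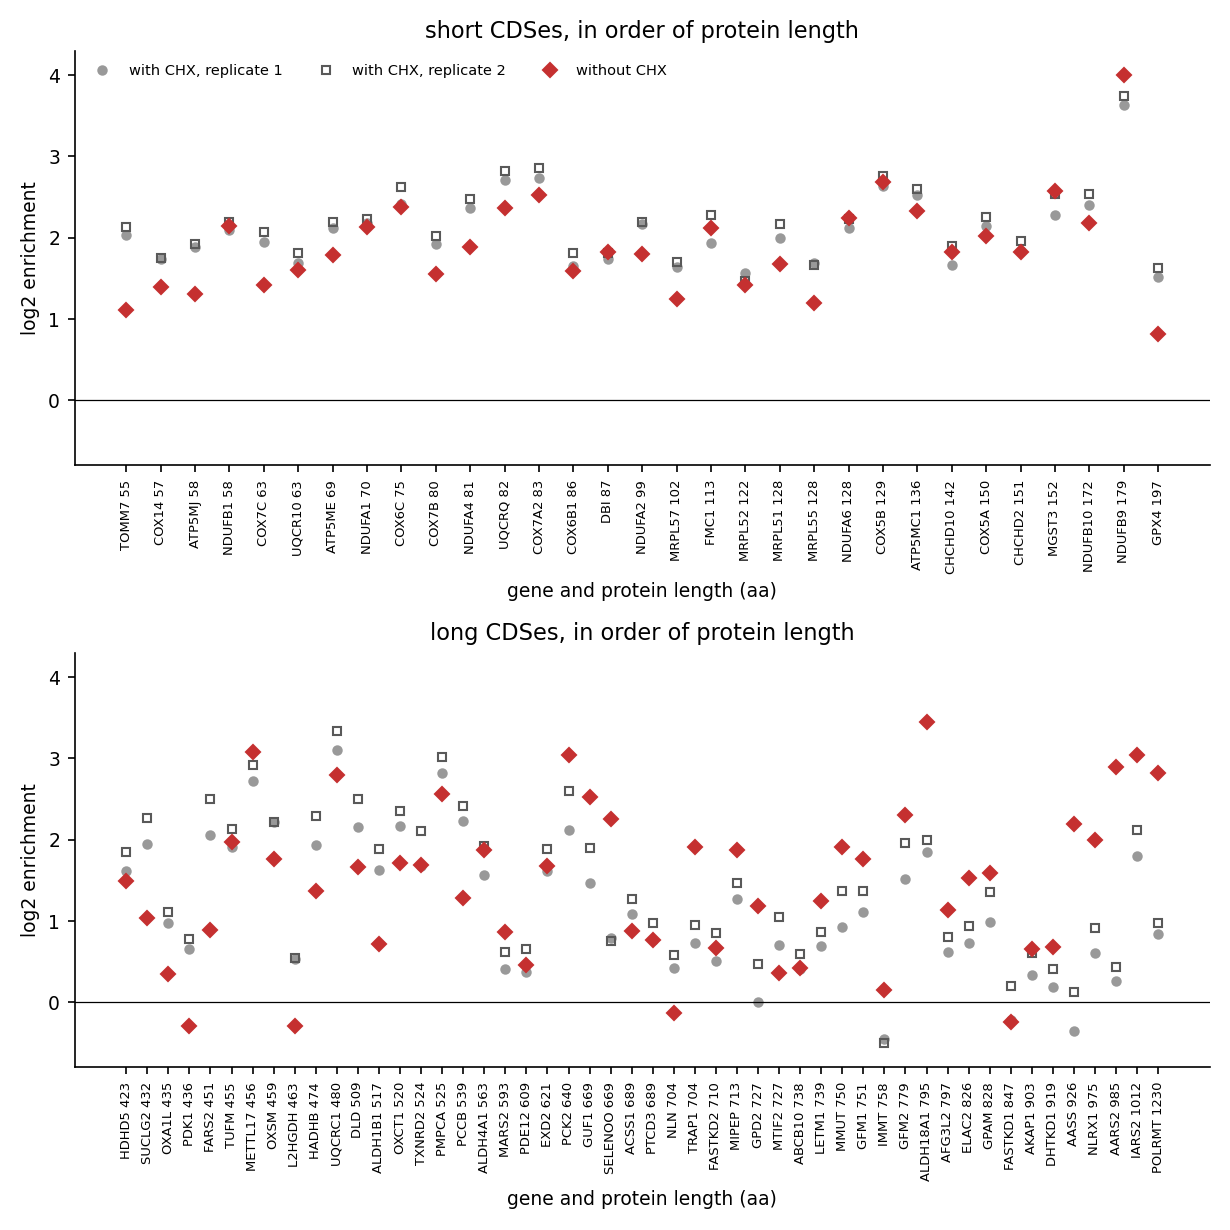
Log2 OMM enrichment (y axis) of each of the 31 short CDSes (top) and 50 long CDSes (bottom), ordered by protein length in aa, in the lysate without CHX (red diamonds) and the replicates with CHX (grey circles and open squares). Long CDSes up to about 600 aa mostly have the red diamond below the grey marks and longer ones mostly above.

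The same dependence on length ran through all protein-coding genes. Median changes were −0.35 for 234 genes under 100 aa, −0.23 for 1188 of 100 to under 200 aa, 0.045 for 3204 of 200 to 400 aa, 0.20 for 4324 of over 400 to 800 aa, 0.32 for 2076 of over 800 to 1600 aa and 0.53 for 601 over 1600 aa. Under 100 aa, 0 genes were higher by over 2-fold and 12 lower (5.13%), while over 1600 aa 105 were higher (17.5%) and 1 was lower. Of all protein-coding genes, 4.33% were higher and 0.765% lower by that much. Without cytosolic ribosomal protein genes, 4 of 225 genes under 100 aa were lower. Of the 105 higher genes, 81 were in the third of protein-coding genes with the highest transcript GC content. The difference between genes over 800 aa and under 200 aa was 0.62, and it ranged from 0.53 to 0.70 when either replicate with CHX was left out. Spearman's rho of the change with length was 0.51 across 11627 protein-coding genes, 0.39 for the change in the pulldown and −0.013 for the change in the total input.

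Length had the same direction in each class of genes. For nuclear-encoded mitochondrial genes the median change was −0.34 under 100 aa (58 genes) and −0.21 at 100 to under 200 aa (195 genes), and it reached 0.49 at over 800 to 1600 aa (41 genes) and 1.19 over 1600 aa (6 genes). The changes of these 6 genes ran from 0.56 to 3.02. The highest was that of ACACA, an enzyme that carries biotin and is described below. Genes translated at the ER, defined as non-mitochondrial genes with a log2 footprint enrichment at the ER above 1 in both replicates, ran from −0.35 under 100 aa to 0.66 over 1600 aa. The remaining genes ran from −0.36 to 0.51. Within mitochondrial genes outside the OMM classes, those over 400 to 600 aa had a median of 0.029 (192 genes), against −0.55 for the 19 long CDSes of that length, and those over 800 aa had 0.56 (37 genes) against 0.89.

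**Figure D3:**
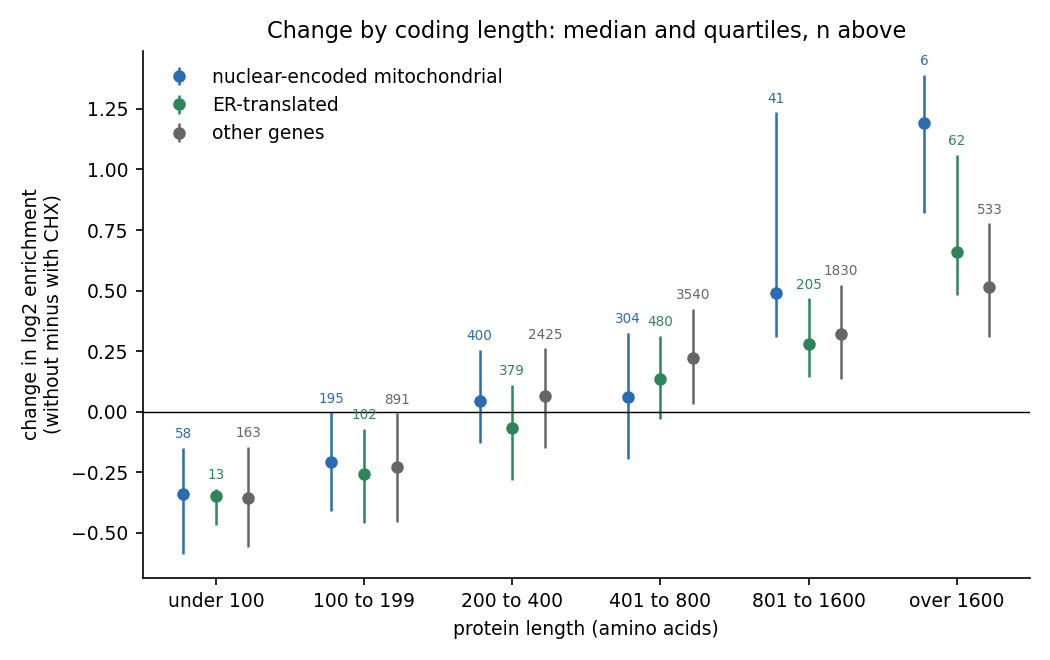
Change in log2 enrichment (y axis, without minus with CHX) by protein length in aa (x axis) for nuclear-encoded mitochondrial, ER-translated and other protein-coding genes, as the median with quartiles and the number of genes above each bar. Medians are below 0 under 200 aa in all 3 classes and highest over 1600 aa, reaching 1.19 for the 6 mitochondrial genes, among them the biotin-carrying ACACA.

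Base composition moved with the change as well. In 10 groups of all genes ordered by transcript GC content the median change ran from −0.0010 at a median GC of 36.8% to 0.41 at 63.9%, while the change in the pulldown stayed between 0.13 and 0.20 and that in the total input went from 0.11 to −0.29. The dependence on length was also present among genes of like GC content. In the third of protein-coding genes with the lowest GC, up to 43.3%, medians ran from −0.36 under 100 aa to 0.40 over 1600 aa, and in the third with the highest GC from −0.34 to 0.88. The part of library preparation in the GC dependence was not tested.

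Of the 504 protein-coding genes higher by over 2-fold, 208 had a total input more than 2-fold lower without CHX and 115 a pulldown more than 2-fold higher. In 147 the total input was more than 2-fold lower while the pulldown differed by less than 0.5, and in 79 the pulldown was more than 2-fold higher with a total input within 0.5. Their median protein length was 896 aa and GC content 60.4%, against 479 aa and 47.6% for all protein-coding genes. The 89 genes lower by over 2-fold had a median of 151 aa and 46.6% GC. In 45 of them the pulldown was more than 2-fold lower and in 2 the total input was more than 2-fold higher. Low values thus lay mostly in the pulldown, and high values in either library.

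The 10 highest changes, ranked by the distance to the nearer value with CHX, were BAHCC1, ACACA, TNRC18, KIF26A, SCRIB, ZNF316, ZSWIM9, AARS2, MYH14 and CLIP2, all of 920 aa or more. BAHCC1, a chromatin protein of 2608 aa, went from 0.18 and 0.33 to 3.36, with 13.5 CPM in the total input against 66.3 and 50.6 with CHX. TNRC18 (−0.19 and −0.36 to 2.53) and ZNF316 (−0.02 and −0.07 to 2.50) had pulldown changes of only 0.27 and 0.26, with total inputs lower by 2.53 and 2.28. KIF26A, a kinesin family member, went from −0.10 and −0.25 to 2.58, with a total input lower by 2.21. SCRIB, a cell polarity scaffold, went from 0.00 and −0.10 to 2.54, and MYH14, a non-muscle myosin heavy chain, from −0.69 and −0.79 to 1.76. ZSWIM9, by contrast, had a pulldown higher by 2.38 and a total input within 0.29.

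ACACA, acetyl-CoA carboxylase (2383 aa; chromosome 17, 37084992 to 37406836), which the study lists among mitochondrial genes, was depleted from the pulldown with CHX, at −1.66 and −1.61, and enriched at 1.39 without. Its pulldown held 535 CPM without CHX against 59.3 and 73.1 with it, and the total input of ACACA held 205 against 187 and 224. The enzyme carries a covalently bound biotin. A list of the 5 human biotin-dependent carboxylases, drawn up after this value was seen, had changes of 3.02 for ACACA, 1.42 for ACACB, 1.01 for pyruvate carboxylase PC, 0.45 for MCCC1 and 0.07 for PCCA, and the partner subunits without biotin had −1.03 (PCCB) and −0.0018 (MCCC2). Streptavidin binds biotin, and whether biotin on nascent carboxylases bears on these values was not tested.

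The 10 lowest changes, ranked in the same way, were those of RPS12, NENF, NMB, C12orf75, COMMD6, EIF4G1, RPS25, GSPT2, RPS27 and RPS29, of which 8 encode 56 to 172 aa. RPS12 went from 1.29 and 1.17 with CHX to −0.68 without. NENF and NMB, a secreted neurotrophic factor and neuromedin B, went from 2.52 and 2.30 to 0.64 and from 2.25 and 2.04 to 0.43. The exceptions in length were EIF4G1, the scaffold of the cap-binding complex (1599 aa), and GSPT2, a termination factor of 628 aa whose transcript resembles that of GSPT1, so reads may be shared. EIF4G1 had 4173 and 3269 CPM in the pulldowns with CHX and 601 without, and its log2 enrichment went from 2.20 and 1.93 to 0.40. Footprints on EIF4G1 were depleted at the OMM in replicate 1, at −1.61. GSPT1 was also lower, going from 0.98 and 0.81 to −0.42.

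Cytosolic ribosomal protein genes, whose products assemble into the translating ribosome, were all less enriched without CHX. All 79 measured genes lay below both replicates with CHX, beside 26.9% of all genes. The change was below −1 for 38 of them and above 1 for 0, beside 0.93% and 5.35% of all genes. Their median log2 enrichment was 1.42 and 1.5 with CHX and 0.38 without (median change −0.96), and the median change was −0.80 in the pulldown and 0.24 in the total input. RPS12, RPS25 and RPS27 had the lowest changes, at −1.91, −1.58 and −1.55, and RPL36A, RPL8 and RPSA the highest, at −0.35, −0.41 and −0.41. RPL29, the tagged subunit, went from 0.56 and 0.61 to −0.15. These genes have processed copies elsewhere in the genome that can share reads, and 117 processed pseudogenes measured here had a median change of −0.41. Protein-coding genes of 100 to under 200 aa had a median of −0.21 once ribosomal protein genes were left out, and 783 of these 1140 genes lay below both replicates.

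Complexes of oxidative phosphorylation, whose nuclear-encoded subunits are mostly short, had median changes from −0.43 to −0.079. Among their subunits 0 differed by over 2-fold, beside 5.35% higher and 0.93% lower of all genes. The value without CHX lay below both replicates for 21 of 37 complex I subunits, 3 of 4 of complex II and 7 of 9 of complex III. It did so for 9 of 12 of complex IV and 11 of 18 of ATP synthase, beside 26.9% of all genes. Among short protein-coding genes it did so for 197 of 234 under 100 aa and 831 of 1188 of 100 to under 200 aa. The median gap between replicates was 0.11 in complex III, 0.12 in complex IV and 0.071 in ATP synthase. These gaps were smaller in size than the median changes of −0.43, −0.16 and −0.23. In complex I the gap was 0.12 against a median change of −0.10, and in complex II 0.13 against −0.079. The median changes of complexes I and II thus lay within the gap between replicates. Complex I, which oxidises NADH, had a median of 1.64 without CHX over 37 genes against 1.59 and 1.76, and its lowest change was that of NDUFC2 (−0.58). For complex IV, the terminal oxidase, 12 genes had 2.05 against 2.20 and 2.28, with COX7A2L lowest at −0.91. Complex III (9 genes) had 1.32 against 1.63 and 1.69, with UQCRH at −0.83 and CYC1 at 0.14. ATP synthase (18 genes) had 1.29 against 1.59 and 1.68, with ATP5F1E at −0.77 and ATP5MK at 0.24. Complex II (4 genes) had 0.78 against 0.68 and 0.84, and SDHA, its largest subunit at 664 aa, had a change of 0.82.

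In mitochondrial gene expression, 78 mitochondrial ribosomal protein genes had a median of 0.86 without CHX against 0.88 and 0.98. Their changes ran from −0.73 for MRPL37 to 0.92 for MRPS31. None differed by over 2-fold, beside 5.35% higher and 0.93% lower of all genes. The 18 mitochondrial aminoacyl-tRNA synthetases had a median change of 0.016 with AARS2 and IARS2 higher (11.1%) and FARS2 lower (5.56%) by over 2-fold, beside the same shares of all genes. Among 13 translation factors MTRFR had the highest change, 0.63, GFM2 went from 1.52 and 1.96 to 2.30, and MTIF2 went from 0.71 and 1.05 to 0.36. Genes of mitochondrial DNA replication (10) had a median change of 0.21. In this small list POLRMT and the polymerase POLG (0.15 and 0.27 to 1.61, total input lower by 1.30) were higher by over 2-fold, beside 5.35% of all genes. For the import machinery, 6 TOM complex genes ran from TOMM7 to TOMM40 (0.29), and the presequence peptidase subunits PMPCA and PMPCB went from 2.82 and 3.02 to 2.56 and from 1.83 and 2.19 to 0.88.

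In metabolism, 14 TCA cycle genes had a median of 0.91 against 0.58 and 0.65, from SUCLG2 (−1.07) to OGDHL (0.73) and MDH2 (0.70). Fatty acid oxidation genes (16) had 0.93 against 0.91 and 1.18, and the subunits HADHA and HADHB of the trifunctional protein had changes of −0.81 and −0.74 while MMUT, methylmalonyl-CoA mutase, had 0.76. Iron-sulfur cluster genes (15) had 0.59 against 0.86 and 0.93, with BOLA3 at 0.61 against 1.90 and 1.97 and IBA57 at 0.44 against −0.55 and −0.63. SLC25 carriers (26), multispanning proteins of the inner membrane, had a median change of 0.0039 and 0 genes beyond 2-fold. Of all 1004 nuclear-encoded mitochondrial genes measured, 34 (3.39%) were higher by over 2-fold and 14 (1.39%) lower, beside 5.35% and 0.93% of all genes.

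Outside mitochondria, proteasome subunits had 0.66 without CHX against 0.14 and 0.14, and 29 of 31 lay above both replicates, beside 60.5% of all genes. Cytosolic aminoacyl-tRNA synthetases had −0.0088 against −0.34 and −0.52, with 17 of 18 above both and MARS1 highest at 0.85, and glycolytic enzymes had 0.076 against −0.14 and −0.26, with PFKL at 1.21. None of the proteasome or cytosolic synthetase genes differed by over 2-fold. ER-translated genes (1241) had a median of −0.026 without CHX against −0.11 and −0.23, and their median change of 0.085 was −0.055 under TMM. By over 2-fold 35 of them were higher (2.82%) and 6 lower (0.483%), beside 5.35% and 0.93% of all genes. Translocon and insertion genes of the ER (36) had 0.25 against 0.37 and 0.26.

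**Figure D4:**
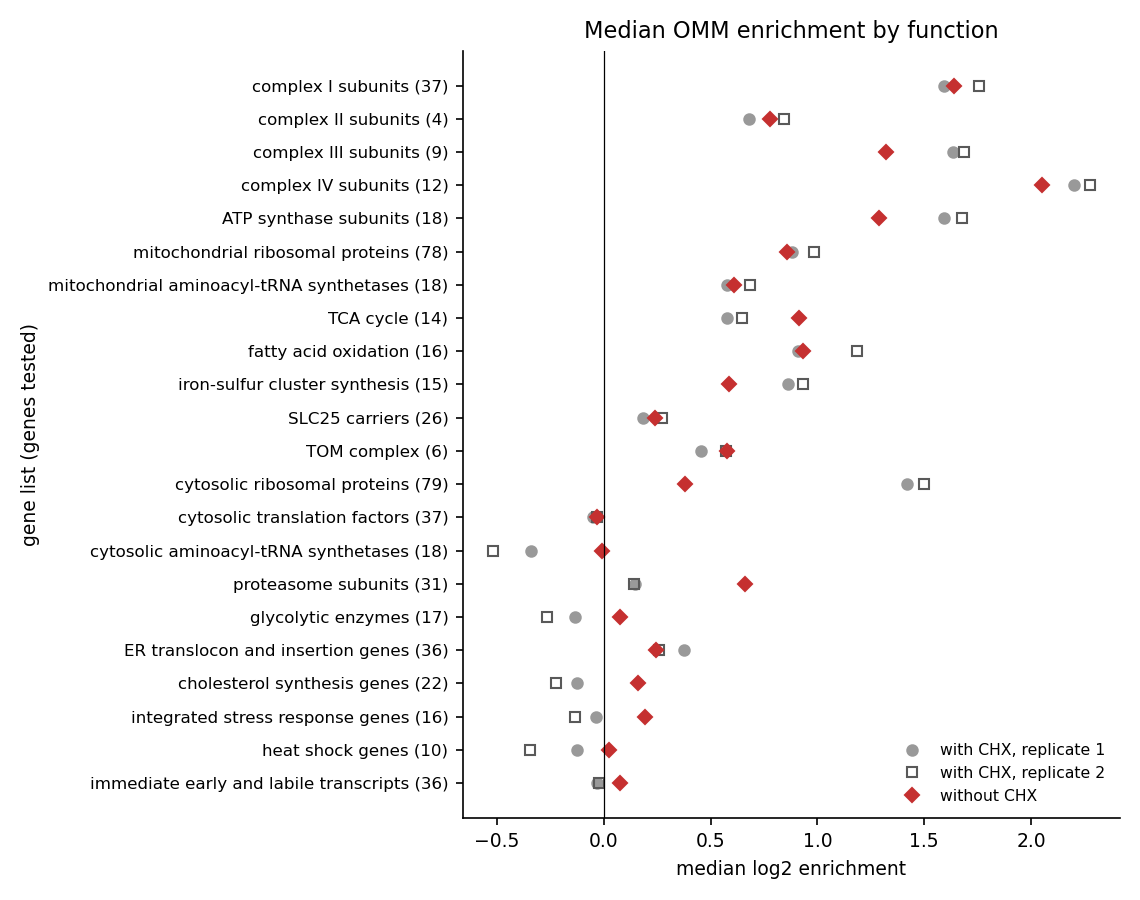
Median log2 OMM enrichment (x axis) of gene lists, with the number of genes measured in parentheses, in the lysate without CHX (red diamonds) and the replicates with CHX (grey circles and open squares). Cytosolic ribosomal protein genes are furthest below their values with CHX, at 0.38 against 1.42 and 1.5, and proteasome subunits are above theirs.

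The total inputs themselves differed, which enters every enrichment through its denominator. Across protein-coding genes the SD of the change in the total input was 0.51, against 0.35 between replicates with CHX, and in the pulldown 0.55 against 0.39. Integrated stress response genes (16) were higher in the total input without CHX by a median of 1.34, led by CHAC1 (3.0) and DDIT3 (2.73), and heat shock genes (10) were lower by 0.95, with HSPA1B at −3.65, a gene that can share reads with a near-identical copy. Cholesterol synthesis genes (22) were lower by 0.88. The median change in enrichment of these lists was 0.21, 0.11 and 0.29, and that in the pulldown was 1.49, −0.89 and −0.50. Immediate early and other labile transcripts (36) had a median change of 0.13, with 4 higher by over 2-fold (11.1%), beside 5.35% of all genes. These were PPP1R15A (0.74 and 1.00 to 2.63), JUNB (1.39), IER2 (1.1) and IER5 (1.07), the last named after its value was seen.

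**Figure D5:**
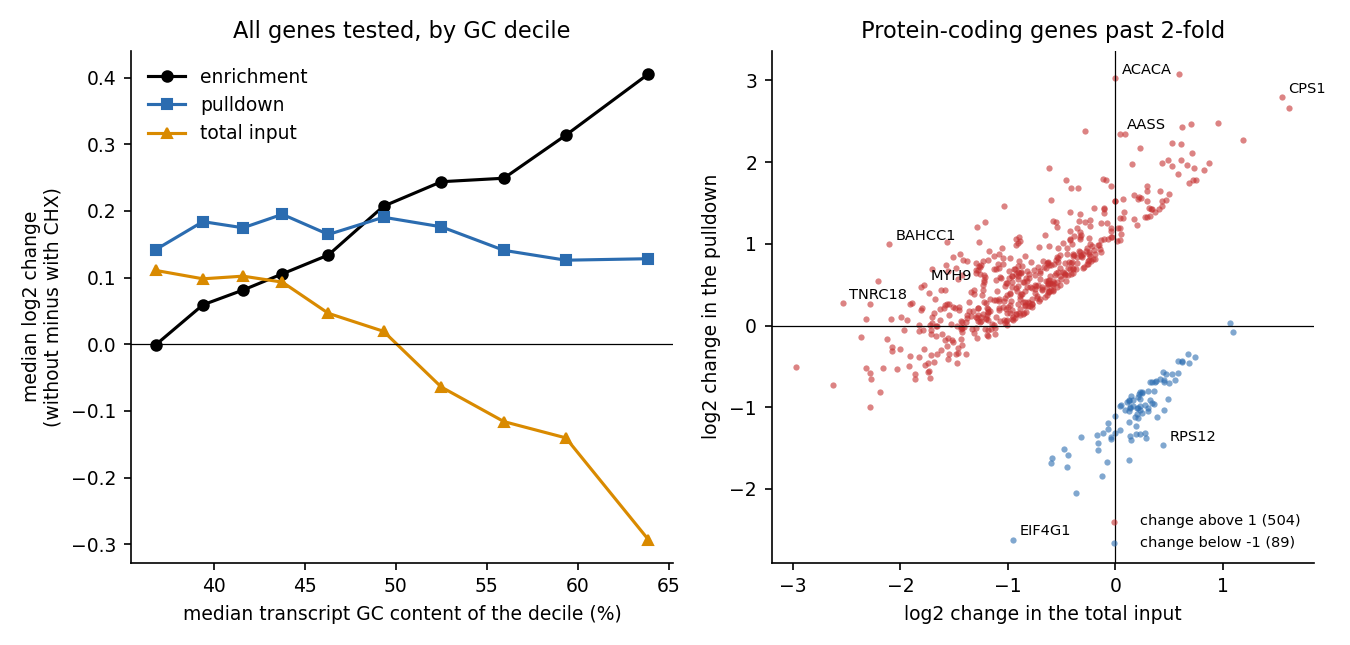
Left, median log2 change without minus with CHX of the enrichment, the pulldown and the total input (y axis) in 10 groups of genes by transcript GC content in % (x axis). Right, the change in the pulldown (y axis) against that in the total input (x axis) for the 504 protein-coding genes higher and 89 lower by over 2-fold. The total input goes from 0.11 to −0.29 with GC while the pulldown stays between 0.13 and 0.20.

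Some genes outside mitochondria also had footprints at the OMM above 1.5 with CHX. The 72 such genes had a median log2 enrichment of 1.13 without CHX against 1.68 and 1.75, and 67 of them lay below both replicates. By over 2-fold 14 were lower (19.4%) and 2 higher (2.78%), beside 0.93% and 5.35% of all genes. Without the 12 ribosomal protein genes among them the median change was −0.46, with 55 of 60 below both and 6 lower by over 2-fold. Both higher genes, named after their values were seen, encode long proteins, RESF1 (1747 aa, −0.27 and 0.09 to 1.55) and NRIP1 (1158 aa, 0.46 and 0.64 to 2.09). This set was picked by footprints made with CHX, as were the OMM classes.

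A list of 16 noncoding RNAs, drawn up as nuclear or short-lived but also holding RN7SL1, had a median change of only 0.081. Of these, 9 were above 0 and 7 below, and the extremes were far apart. RN7SL1, the RNA of the signal recognition particle, which acts in the cytosol, was depleted at −5.61 and −5.62 with CHX and at −2.06 without. Its pulldown change was 3.54 and its total input change −0.013. The values of RN7SL1 are uncertain, as it can share reads with near-identical copies. The nuclear RNA MALAT1 went from −1.02 and −0.97 to 1.09 and NEAT1, a nuclear RNA of paraspeckles, from −2.05 and −2.09 to −0.58. SNHG6, a host transcript of a small nucleolar RNA, went the other way, from 0.70 and 0.79 to −0.75. Over 931 long noncoding RNAs the median change was 0.32, with 125 higher by over 2-fold (13.4%) and 7 lower (0.752%), beside 5.35% and 0.93% of all genes.

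The genes at the top of the enrichment order were partly other genes without CHX. Nuclear-encoded mitochondrial genes were 49 of the 100 most enriched protein-coding genes without CHX and 58 and 63 with CHX. They were 1004 of all 11627 protein-coding genes, so they were over-represented at the top in each lysate. The median protein length of the 100 most enriched genes was 638 aa without CHX and 129 aa and 131 aa with it. Their median GC content was 59.6% without CHX and 54.0% and 52.9% with it. Of the 100 genes, 34 and 36 were shared with each replicate, while the replicates shared 89. Across 6969 protein-coding genes with footprints, footprint enrichment at the OMM had a Pearson r of 0.50 with RNA enrichment without CHX, against 0.71 and 0.72 with CHX. Across 710 mitochondrial genes it was 0.60, against 0.67 and 0.70. Within the 31 short CDSes it was 0.32, against 0.27 and 0.35, and within the 50 long CDSes 0.56, against 0.26 and 0.31. Both classes were picked by footprint enrichment above 1.5, so these r values cover only part of its range.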

How the data were processed

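RNA-seq of LOCL-TL pulldowns and total inputs of 3 lysates was used. Per the study's methods, the authors aligned read pairs to GRCh38 with STAR and deposited raw counts per gene from featureCounts, whose strand setting is not given in the sources used here. The FPKM column the authors deposited exceeds a recalculation from its counts and lengths 10-fold, so it was taken as a score. For ribosome profiling, which only set the gene classes, the authors deposited estimated counts and RPKM per coding sequence, and log2 RPKM ratios were used where the total held 64 or more footprints. One broken entry (3 to 5 lines per file) was left out.

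Enrichment was log2 CPM, by library totals with 0.5 reads added, pulldown minus total input of the same lysate. Genes needed 64 reads in each total input. Protein length and GC content are those of the canonical transcript in GENCODE 44 on GRCh38, which named 13005 of 13016 genes. Nuclear-encoded mitochondrial genes (1058) are those in the study's lists. The members and gene lists were chosen with earlier results of these data known. Named are the 10 largest rises and falls among protein-coding genes, 5 at each end of both OMM classes, up to 3 at each end of a list described, and genes the study names. Others are said to have been chosen after their values were seen. Nothing in the labels says whether the replicates with CHX came from separate cultures.

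Counting error alone gives a median standard error of the change of 0.19 at 64 to 128 reads and 0.039 above 1024, and replicates with CHX differed by a median of 0.26 and 0.092 there. Alternatives were TMM (edgeR 4.0.16), DESeq2 1.42.0 size factors, other minimums, another pseudocount, the score's ratio, other class limits, each replicate left out and, chosen after seeing the data, matching by GC content. The calculation was tested on simulated data. Python 3.11.15 and R 4.3.3 were used.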

Additional observations from a re-analysis of the deposited data

How the results depend on the processing

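Under TMM, 201 genes were lower by over 2-fold, and the median change was 0.019 for all genes, −0.38 for short CDSes, −0.083 for long CDSes, −0.13 for other mitochondrial genes, −0.055 for ER-translated genes, 0.042 for the remaining genes and −1.10 for cytosolic ribosomal proteins. Under DESeq2 size factors these were 236 genes, −0.027, −0.43, −0.13, −0.18, −0.10, −0.0035 and −1.15. With a minimum of 10 reads, 1789 genes were higher and 250 lower by over 2-fold, the medians of all and remaining genes were 0.19 and 0.22, and the SD between replicates was 0.45. With no minimum these were 8047, 3673, 0.21, 0.24 and 1.34, and with the larger minimum tried 419 genes were higher. Footprint replicate 2 as definer of the classes gave −0.31 for short and −0.017 for long CDSes, and a footprint threshold of 1 gave −0.30 and −0.11. Matching by GC content, chosen after seeing the data, gave −0.31 for short CDSes, −0.0033 for other mitochondrial genes and −1.02 for ribosomal proteins.

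With either CHX replicate left out, genes higher by over 2-fold numbered 685 to 754 and genes lower 102 to 149. The medians ranged from 0.14 to 0.18 for all genes, −0.28 to −0.20 for short CDSes, −0.10 to 0.23 for long CDSes, −0.032 to 0.039 for other mitochondrial genes, 0.015 to 0.15 for ER-translated genes, 0.16 to 0.20 for the remaining genes and −1.01 to −0.93 for ribosomal proteins. The cause of these shifts was not tested. The contrast of genes over 800 aa with those under 200 aa ranged from 0.53 to 0.70. Of 49 named genes beyond 2-fold, 44 stayed beyond it under TMM and 42 when matched by GC content. TMM lowers every change by the same 0.14, so it could not turn the sign of any of them. Many of these genes were named for lying at an end of the same values. No paired analysis was possible because the only lysate without CHX shares at most 1 replicate number with those with CHX. No median could be given for the mitochondrial genome.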

Other observations

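Genes of very long structural proteins, grouped by symbol after their values were seen, were higher without CHX. Among 19 collagen genes, which encode chains of the extracellular matrix, the median log2 enrichment was 1.00 without CHX against −0.25 and −0.43 with it, with 12 genes (63.2%) higher by over 2-fold and 18 above both replicates. Their median protein length was 1499 aa and GC content 59.1%, and in the third of protein-coding genes with the highest GC, 20.5% of those over 800 to 1600 aa and 44.3% of those over 1600 aa were higher by over 2-fold, beside 5.35% of all genes. COL4A2, a basement membrane collagen, had 2.31 against 0.24 and −0.32, and COL14A1 was the exception at 0.085 against 0.40 and −0.14. The total input of collagen genes had a median change of −0.67 and the pulldown one of 0.72. Myosin and spectrin heavy chains (8) had 1.14 against −0.62 and −0.84, with 7 higher by over 2-fold and a median total input change of −1.16. Histone genes (44) and ZNF genes (404) had median changes of 0.12 and 0.24.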
